A study of Mus musculus with 12 samples.

Results

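The miRNAs described here are both arms of the miR-31 hairpin, mmu-miR-31-5p and mmu-miR-31-3p, and the 3′ arms of the neighbouring miR-221 and miR-222 hairpins, mmu-miR-221-3p and mmu-miR-222-3p. They were taken by the names on the array and not by any measured value, and they make up 4 of its 576 entries. All 4 were among the 118 entries tested, which are those well above background on all 3 arrays of at least 1 group. The arrays were Agilent 1-colour miRNA microarrays of LLC1 cells, a mouse Lewis lung carcinoma line grown in culture, with 100 ng of total RNA labelled with Cy3 per array. Each of the 4 groups had 3 arrays. Control cells were untreated, the 2 Gy and 10 Gy groups had received their dose at once, and the 5x2 Gy group had received the same total as the 10 Gy group, split into 5 fractions. RNA was taken 4 h after irradiation. The labels call the 3 samples of a group biological replicates but name no culture or day, so p-values measure the spread between these samples. None of the 4 miRNAs passed the test between any of the groups. MiR-31-5p lay higher on all 5x2 Gy arrays than on any array of 2 Gy or 10 Gy, and inside the range of the control arrays. Of all 118 miRNAs, 30.5% did not overlap between 5x2 Gy and 2 Gy, and 26.3% between 5x2 Gy and 10 Gy, in either direction.

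A miRNA is loaded into an Argonaute protein and pairs with target mRNAs mainly through its seed (bases 2 to 8), which lowers their translation or stability. Each hairpin precursor is cut by Drosha and then Dicer, and can give a mature strand from its 5′ arm (named 5p) and from its 3′ arm (named 3p), of which one usually accumulates. MiR-31 is known for effects on growth and spread in lung and other carcinomas, with the tumour suppressor Lats2 among its known targets. MiR-221 and miR-222 are cut from neighbouring hairpins and are known to repress the cell cycle inhibitor Cdkn1b.

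The mature sequences are shown because they set which members are related and which are not. All 4 names matched the RefSeq miRNA sequences of assembly GRCm38.p6, from which the sequences are taken, 5′ to 3′, with the seed in capitals.
miR-31-5p: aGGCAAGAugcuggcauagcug
miR-31-3p: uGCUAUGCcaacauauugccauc
miR-221-3p: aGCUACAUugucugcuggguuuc
miR-222-3p: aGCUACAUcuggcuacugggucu

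MiR-221-3p and miR-222-3p share the seed GCUACAU and all of their first 8 bases, and are identical at 11 of 23 positions counted from the 5′ end. The arms of miR-31 have different seeds, GGCAAGA and GCUAUGC, and no other mature name of the RefSeq table carries either of them. The seed of miR-221-3p and miR-222-3p is also that of miR-1928, which was not analysed here. The hairpin of Mir31, shown with its arms in capitals because both arms are cut from this single transcript, is 106 bases long.
Mir31: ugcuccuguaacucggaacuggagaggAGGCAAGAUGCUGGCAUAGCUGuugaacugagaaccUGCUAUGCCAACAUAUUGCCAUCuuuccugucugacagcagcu

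In the RefSeq annotation Mir31 lies on the minus strand of chromosome 4 and overlaps the long non-coding RNA gene Gm49890. Mir221 and Mir222 lie on the minus strand of chromosome X with 0 genes between them. The other arms, miR-221-5p and miR-222-5p, were not analysed here.

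The arrays differed in brightness, which is the 75th percentile of signal used to scale each array, and fell into 6 dimmer arrays (110.5 to 388) and 6 brighter arrays (703 to 1102). The dimmer arrays were control replicates 1 and 2, 2 Gy replicates 1 and 3 and 10 Gy replicates 1 and 2. The brighter ones were control replicate 3, 2 Gy replicate 2, 10 Gy replicate 3 and all of 5x2 Gy. The latter 3 arrays and 10 Gy replicate 3 shared slide 2, and all others were on slide 1. Between 48 and 137 miRNAs were well above background per array. Of 5 epithelial marker miRNAs of the miR-200 family, 0 were well above background on any array, although the line is labelled a lung carcinoma. Of fibroblast markers 4 of 5 were tested, with a mean level of -2.06 to -1.95 in control, -2.02 to -1.77 after 2 Gy, -1.88 to -1.75 after 10 Gy and -1.74 to -1.62 after 5x2 Gy. Of blood cell markers 2 of 6 were tested, with means from -2.69 to -2.22 over all arrays. No endothelial, muscle, nerve or liver marker (0 of 2, 3, 2 and 1) was tested.

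Groups were compared with limma on log2 levels, with p-values adjusted over the 118 miRNAs of each comparison. Across the members, 0 of 4 passed in any comparison (limma adjusted p under 0.05), and this is read against all 118 miRNAs tested. Of those, limma called 0% in 2 Gy minus control, 0.847% in 10 Gy minus control, 12.7% in 5x2 Gy minus control, 2.54% in 5x2 Gy minus 10 Gy, 0% in 10 Gy minus 2 Gy, 4.24% in 5x2 Gy minus 2 Gy and 5.93% in the F test. At an unadjusted limma p under 0.05, only miR-31-5p of the members stood out, in 5x2 Gy minus 10 Gy (1 of 4, beside 15.3% of the 118) and in 5x2 Gy minus 2 Gy (1 of 4, beside 21.2%). No member did so in 2 Gy minus control (beside 11 of the 118, 9.32%), 10 Gy minus control (20.3%), 5x2 Gy minus control (30.5%), 10 Gy minus 2 Gy (2 of the 118, 1.69%) or the F test (18.6%). The groups did not overlap for 2 of 4 members (miR-31-5p and miR-222-3p) in 5x2 Gy minus 10 Gy, where 26.3% of the 118 did not, and for 1 of 4 (miR-31-5p) in 5x2 Gy minus 2 Gy, where 30.5% did not. The share of 1 in 4 is near that background. No member's groups were separate in the other comparisons, where 6.78% (2 Gy minus control), 15.3% (10 Gy minus control), 33.1% (5x2 Gy minus control) and 5.93% (10 Gy minus 2 Gy) of the 118 were. Of the fibroblast markers, limma called 2 of 4 in 5x2 Gy minus control (miR-199a-5p and miR-214-3p, both higher, smallest limma adjusted p = 0.0103) and 1 of 4 in 5x2 Gy minus 2 Gy (miR-199a-5p, higher, limma adjusted p = 0.0138). It called none of them in the other 4 comparisons (smallest limma adjusted p = 0.0503), and no blood cell marker in any. The part of these markers in the results on the members was not tested.

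Levels below are log2 of the signal relative to the array's 75th percentile, changes are differences between group means in those units, and errors of group means are SD with n = 3. MiR-31-5p, the arm for which most targets of miR-31 are known, was well above background on 12 of 12 arrays. Its level in control was 0.11, -0.63 and -0.08 on replicates 1, 2 and 3. After 2 Gy it was -0.94, -0.27 and -0.86, and after 10 Gy it was -0.73, -0.93 and -0.31. After 5x2 Gy it was 0.0043, 0.034 and 0.0048. The 5x2 Gy arrays thus lay together, above every array of 2 Gy and 10 Gy and between control replicates 1 and 3, while each other group was spread widely. Such a separation held for 30.5% (from 2 Gy) and 26.3% (from 10 Gy) of the 118 miRNAs, in either direction.

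From the highest, the group means of miR-31-5p ran 5x2 Gy (0.014 ± 0.017), control (-0.20 ± 0.39), 10 Gy (-0.66 ± 0.32) and 2 Gy (-0.69 ± 0.37), and the neighbours in this order overlapped. The change from control was -0.49 after 2 Gy (SE 0.25, 95% interval -1.06 to 0.07, limma adjusted p = 0.518) and -0.46 after 10 Gy (-1.02 to 0.10, limma adjusted p = 0.340). After 5x2 Gy it was 0.21 (-0.35 to 0.78, limma adjusted p = 0.718). These 3 comparisons share the control arrays. Without scaling the first 2 turned in sign (0.10 and 0.19). Over the 71 tested miRNAs above the floor (the lowest level allowed) on all arrays, the median shift from the main fit was then 0.51 and 0.57. Relative to that common shift the first 2 changes of miR-31-5p were -0.41 and -0.38. The sign after 10 Gy also turned with scaling over all probes (0.04) and the authors' values (0.02), and that after 5x2 Gy with median scaling (-0.0032). With the same total dose, 5x2 Gy minus 10 Gy was 0.67 (0.11 to 1.23, 1.59-fold, unadjusted p = 0.0250, limma adjusted p = 0.258). Against a single fraction, 5x2 Gy minus 2 Gy was 0.70 (0.14 to 1.27, 1.63-fold, unadjusted p = 0.0201, limma adjusted p = 0.151). Neither passed after adjustment over the 118 miRNAs, and 10 Gy minus 2 Gy was 0.03 (-0.53 to 0.60, limma adjusted p = 1). In RNA of a whole culture, fewer cells with the miRNA and less of it per cell cannot be told apart.

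**Figure D1:**
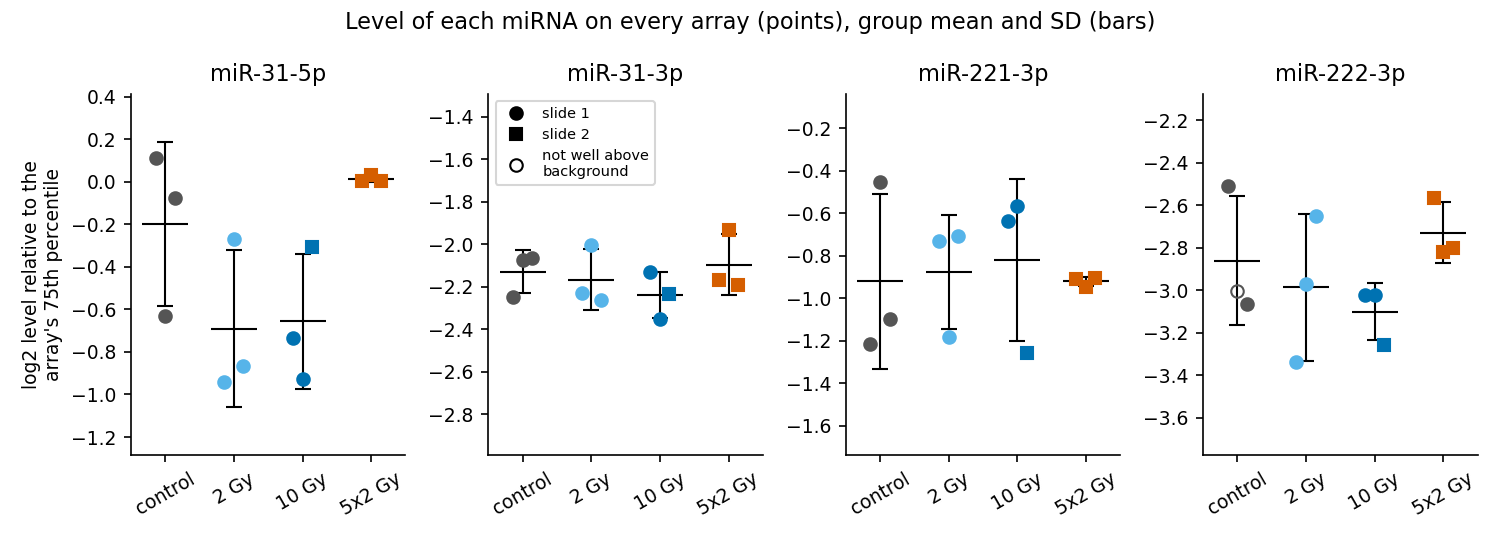
The log2 level of each miRNA (y axis, relative to the array's 75th percentile) is plotted for the 4 groups, with 1 point per array, the group mean as a horizontal line and SD as bars, circles for slide 1 and squares for slide 2. The open circle is control replicate 2 for miR-222-3p, not well above background. MiR-31-5p after 5x2 Gy sits at 0.0043 to 0.034, above all arrays of 2 Gy and 10 Gy, where 30.5% and 26.3% of the 118 tested miRNAs did not overlap.

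MiR-31-3p, the other arm of the same hairpin, varied least of the members. It was well above background on 12 of 12 arrays, by only 1 of its 2 probes on control replicate 2. Its level was -2.25, -2.08 and -2.06 in control and -2.23, -2.002 and -2.26 after 2 Gy. After 10 Gy it was -2.13, -2.35 and -2.23, and after 5x2 Gy -2.17, -1.93 and -2.19. The groups overlapped in every comparison, and the group means lay between -2.24 and -2.096. The changes ran from -0.11 (10 Gy minus control, 95% interval -0.34 to 0.12, limma adjusted p = 0.608) to 0.14 (5x2 Gy minus 10 Gy, -0.09 to 0.37, limma adjusted p = 0.576). In the main scaling these intervals exclude a change of 0.5 in either direction, and the limma F test over the 4 groups gave an adjusted p of 0.779. Under other settings 5x2 Gy minus control ran from -0.45 to 1.80 for miR-31-3p, common shifts included. The 2 probes of miR-31-3p had r = 0.31 over the 12 arrays. The sign of each of its 6 changes turned under at least 1 other scaling or background correction.

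The arms of miR-31 were therefore compared on each array, where a scaling by 1 factor per array cancels. The difference of the log2 level of miR-31-5p minus that of miR-31-3p was 2.36, 1.44 and 1.99 in control, 1.29, 1.73 and 1.40 after 2 Gy, 1.40, 1.42 and 1.93 after 10 Gy and 2.17, 1.97 and 2.20 after 5x2 Gy. Since each arm has its own probes, its size carries no meaning and only its change between arrays is read. Its mean was 2.11 ± 0.13 after 5x2 Gy, against 1.58 ± 0.30 after 10 Gy, 1.48 ± 0.23 after 2 Gy and 1.93 ± 0.46 in control. The 5x2 Gy arrays lay above all 10 Gy arrays (a difference of 0.53) and all 2 Gy arrays (0.64). The exact permutation test gave a two-sided p of 0.1 for both, the smallest that 3 arrays against 3 allow, and 0.6 after adjustment over 18 such comparisons. The control arrays overlapped all other groups. Quantile scaling, which is not 1 factor per array, left both of these differences without overlap (0.68 and 0.67). It took 2 Gy minus control from -0.46 to -0.76 and 10 Gy minus control from -0.35 to -0.76, both then without overlap, and turned 5x2 Gy minus control from 0.18 to -0.09.

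MiR-221-3p, of the pair known to repress Cdkn1b, was well above background on 12 of 12 arrays, with a level of -1.22, -0.45 and -1.096 in control. It was -0.73, -1.18 and -0.71 after 2 Gy, -0.64, -0.57 and -1.26 after 10 Gy, and -0.91, -0.95 and -0.90 after 5x2 Gy. As with miR-31-5p, the 5x2 Gy arrays were close together, with an SD of 0.023 against 0.27 to 0.41 in the other groups. All groups overlapped, and the order of the means (10 Gy, 2 Gy, 5x2 Gy, control) spanned only -0.82 to -0.92. Changes from control were 0.05 after 2 Gy (95% interval -0.52 to 0.61), 0.10 after 10 Gy (-0.46 to 0.66) and 0.00081 after 5x2 Gy (-0.56 to 0.56), with limma adjusted p of 1, 0.934 and 1. Each of these intervals spans over 1 log2 unit. The sign after 2 Gy turned with median scaling (-0.02) and with normexp (-0.03), and that after 5x2 Gy with both and with quantile scaling (-0.21, -0.15 and -0.13).

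MiR-222-3p, which shares the seed of miR-221-3p, was well above background on 11 of 12 arrays. The exception was control replicate 2, the dimmest array. On 2 Gy replicate 1 and 10 Gy replicate 2 only 1 of the 2 probes of miR-222-3p was, and its level averages both. Its level was -2.51, -3.01 and -3.06 in control, -3.34, -2.97 and -2.65 after 2 Gy, -3.02, -3.02 and -3.26 after 10 Gy and -2.57, -2.82 and -2.80 after 5x2 Gy. From the highest, the means ran 5x2 Gy (-2.73 ± 0.14), control (-2.86 ± 0.30), 2 Gy (-2.99 ± 0.34) and 10 Gy (-3.10 ± 0.13), and all neighbours in this order overlapped. All 5x2 Gy arrays lay above all 10 Gy arrays, with a change of 0.37 (95% interval -0.08 to 0.82, limma adjusted p = 0.420), which normexp turned to -0.22. Every other pair of groups overlapped. Against control, the 2 Gy group differed by -0.13, the 10 Gy group by -0.24 and the 5x2 Gy group by 0.13, with limma adjusted p of 0.955, 0.577 and 0.861, and all 3 turned in sign under at least 1 other scaling or background correction.

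The difference between the pair from neighbouring genes varied from array to array. The log2 level of miR-221-3p minus that of miR-222-3p was 1.30, 2.55 and 1.97 in control, 2.61, 1.79 and 1.94 after 2 Gy, 2.39, 2.45 and 2.00 after 10 Gy and 1.66, 1.87 and 1.90 after 5x2 Gy. The 5x2 Gy arrays lay below all 10 Gy arrays, with means of 1.81 ± 0.13 and 2.28 ± 0.25, a change of -0.47 (exact permutation p = 0.1, two-sided, the smallest possible; 0.6 adjusted). The 2.55 is that of control replicate 2, where miR-222-3p was not well above background. The 2.61 and 2.45 are those of 2 Gy replicate 1 and 10 Gy replicate 2, where only 1 of its 2 probes was. In the other 5 comparisons of this difference the groups overlapped. Control and 10 Gy did so only through control replicate 2, the other control arrays (1.30 and 1.97) lying below all of 10 Gy. With quantile scaling the change in 5x2 Gy minus 10 Gy was -0.37, again without overlap, and those against control were -0.19 after 2 Gy and -0.23 after 10 Gy, against 0.17 and 0.34 here.

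The median change of the 4 members was -0.08 in 2 Gy minus control and -0.17 in 10 Gy minus control, beside 0 over all 118 in both. It was 0.08 in 5x2 Gy minus control, beside 0.00040, and 0.26 in 5x2 Gy minus 10 Gy, beside 0.03. MiR-31-5p and miR-221-3p were among the more variable miRNAs within groups. Their residual SD was 0.31 each, ranks 20 and 19 of 118 from the highest, against a median of 0.14. MiR-222-3p (0.25, rank 33) and miR-31-3p (0.13, rank 66) varied less.

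**Figure D2:**
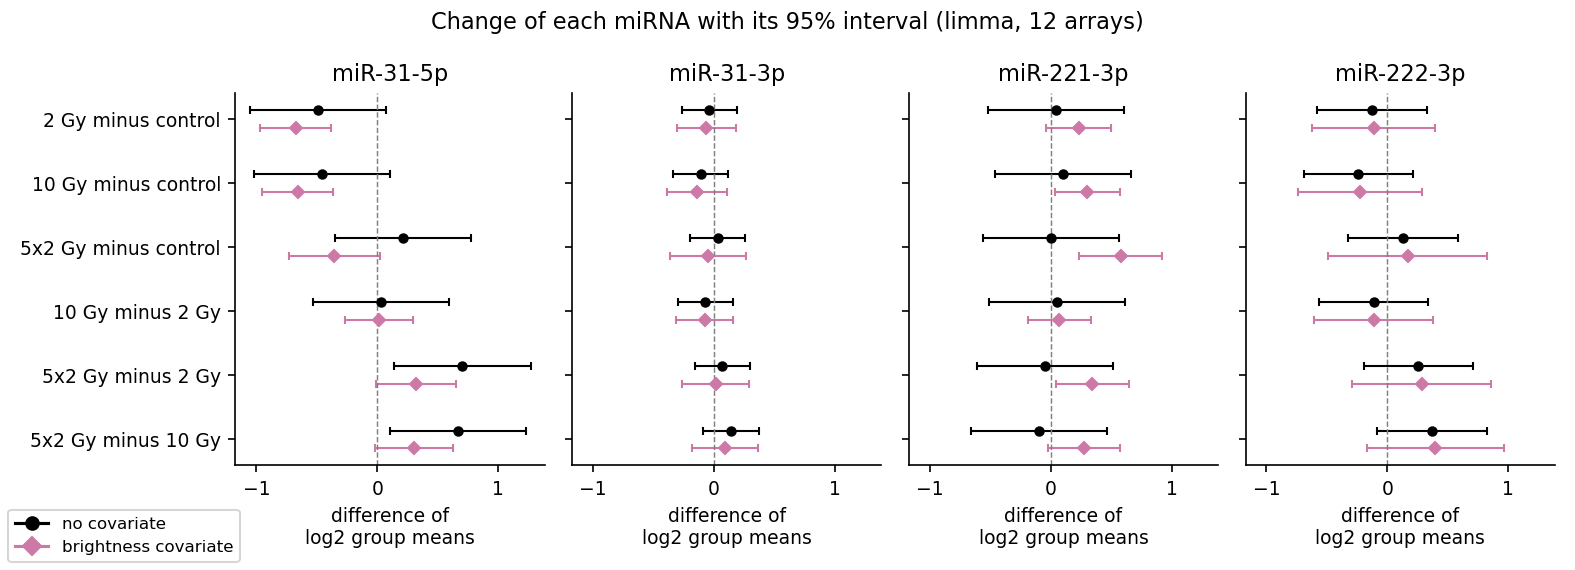
Each panel plots 1 miRNA, with the difference of log2 group means on the x axis, 95% intervals as bars and the 6 comparisons as rows. Black circles are the limma fit without a covariate and pink diamonds the fit with array brightness as a covariate: for miR-31-5p the interval of 2 Gy minus control moves from -1.06 to 0.07 to -0.97 to -0.38.

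The levels of miR-31-5p and miR-221-3p differed between the dimmer and the brighter arrays. Brightness is also the value by which each signal is divided, and all 5x2 Gy arrays are among the brighter. MiR-31-5p lay between -0.31 and 0.03 on the 6 brighter arrays. On the 6 dimmer arrays it ran from -0.94 to -0.63, except for control replicate 1 at 0.11. MiR-221-3p ran the other way, from -1.26 to -0.90 on the brighter arrays. On the dimmer arrays it ran from -0.73 to -0.45, except for control replicate 1 at -1.22. MiR-31-3p (-2.23 to -1.93 on the brighter, -2.35 to -2.08 on the dimmer) and miR-222-3p (-3.26 to -2.57 and -3.34 to -2.51) covered much the same range on both.

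**Figure D3:**
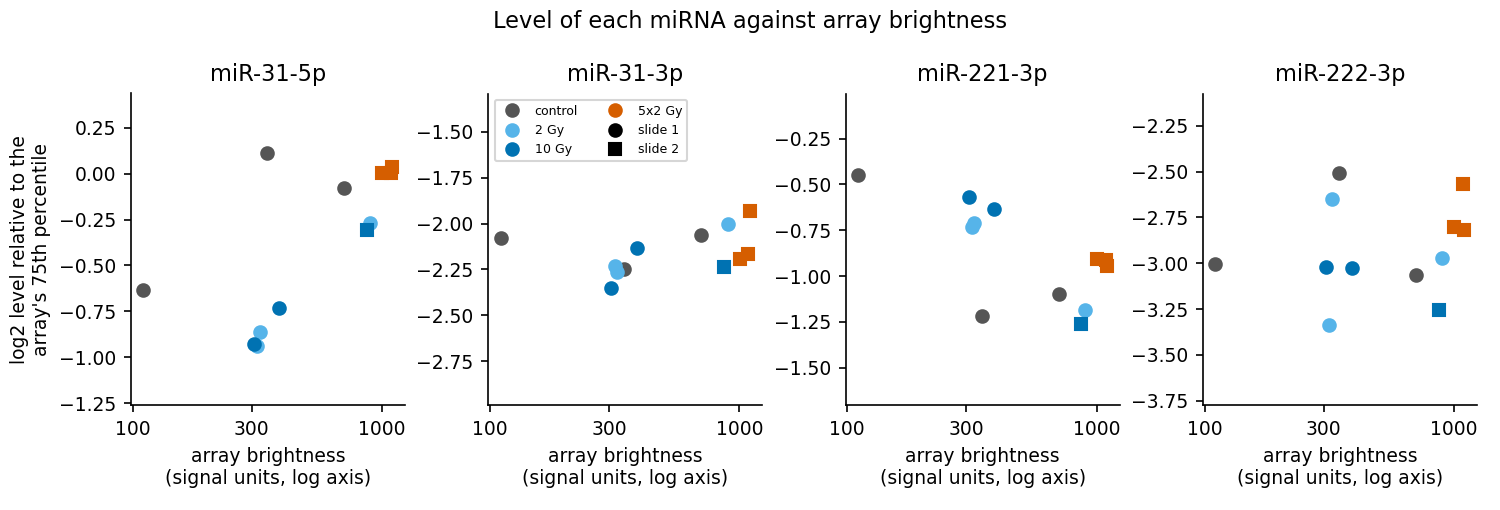
The log2 level of each miRNA (y axis) is plotted against array brightness in signal units (x axis, log scale), with 1 point per array coloured by group, circles for slide 1 and squares for slide 2. For miR-31-5p the 6 brighter arrays sit between -0.31 and 0.03, and 1 dimmer array, control replicate 1, sits above them at 0.11.

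With array brightness as a covariate, the change of miR-31-5p was -0.68 after 2 Gy (SE 0.13, limma adjusted p = 0.0196) and -0.66 after 10 Gy (SE 0.13, limma adjusted p = 0.0245), and both passed. In that fit limma called 6 miRNAs in 2 Gy minus control and 26 in 10 Gy minus control. The call of miR-31-5p held without each control array in turn, with changes of -0.54, -0.67 and -0.95 after 2 Gy and -0.53, -0.65 and -0.94 after 10 Gy (limma adjusted p of 8.25e-06 to 0.0403). The same covariate turned 5x2 Gy minus control to -0.35 (limma adjusted p = 0.156) and took 5x2 Gy minus 10 Gy to 0.31 (limma adjusted p = 0.460). For miR-221-3p the covariate gave 0.58 in 5x2 Gy minus control (SE 0.15, limma adjusted p = 0.0312), and 0.44 and 0.58 without control replicates 1 and 2 (limma adjusted p of 0.0367 and 0.0458). Of all 118 miRNAs, the brightness fit on all arrays called 21 higher and 7 lower in that comparison.

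More of these comparisons passed without control replicate 3, the only brighter control array, than without either other control array. Control then held only arrays of brightness 346 and 110.5. Its values at higher brightness thus came only from the line fitted across all groups. How many of all 118 miRNAs passed in the fits with a control array left out was not counted. Without control replicate 3 both miR-31-5p and miR-221-3p passed in 5 of 6 comparisons, all but 10 Gy minus 2 Gy. MiR-31-5p then differed by -0.77 in 5x2 Gy minus control (limma adjusted p = 0.000158), 0.17 in 5x2 Gy minus 10 Gy (limma adjusted p = 0.0364) and 0.18 in 5x2 Gy minus 2 Gy (limma adjusted p = 0.0175). MiR-221-3p differed from control by 0.46 after 2 Gy (limma adjusted p = 0.00745), 0.53 after 10 Gy (limma adjusted p = 0.00297) and 0.92 after 5x2 Gy (limma adjusted p = 0.00154). After 5x2 Gy it differed by 0.39 from 10 Gy (limma adjusted p = 0.0344) and by 0.47 from 2 Gy (limma adjusted p = 0.0108). All 5x2 Gy arrays were brighter than all others (1004 to 1102 against at most 897), so in those comparisons brightness and dose are told apart only through the line fitted to the other groups.

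The mean of 6 GC-rich or rRNA-derived entries, often a sign of array background or RNA state, was 0.06 on control replicate 1 and lay between -2.03 and -0.74 on the other 11 arrays. None of these 6 passed in any comparison with control, with a median change of -0.75 for the 2 Gy group, -0.87 for 10 Gy and -0.61 for 5x2 Gy. With this mean as a covariate, a fit added after the data were seen, miR-31-5p changed by -0.08 after 2 Gy (limma adjusted p = 0.893) and 0.04 after 10 Gy (limma adjusted p = 1). Its changes were 0.55 in 5x2 Gy minus control (limma adjusted p = 0.0179) and 0.63 in 5x2 Gy minus 2 Gy (limma adjusted p = 0.0141), and both passed. Of all 118 miRNAs, that fit called 29 higher and 12 lower in 5x2 Gy minus control. In 5x2 Gy minus 2 Gy it called 12 higher and 0 lower. Which covariate describes these arrays was not tested.

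All 5x2 Gy and all control arrays lay on different slides, so in that comparison slide and dose are told apart only through 10 Gy replicate 3. With slide as a block, miR-31-5p changed by -0.63 in 10 Gy minus control (limma adjusted p = 0.244), the value also found within slide 1 (limma adjusted p = 0.452), and by -0.31 in 5x2 Gy minus control (limma adjusted p = 0.798). For 5x2 Gy minus 10 Gy the block gave 0.32 (limma adjusted p = 1). Slide 2 holds 1 array of 10 Gy, so the spread of that group cannot be had there. The mean of the 3 arrays of 5x2 Gy minus this array was 0.32 for miR-31-5p and 0.34 for miR-221-3p, given without a test. The comparison of 2 Gy with control lay wholly on slide 1 and is a within-slide value already.

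MiR-31-5p and miR-221-3p were also set against each other on each array. Their difference in log2 level, which a scaling by 1 factor per array cannot change, was 1.33, -0.18 and 1.02 in control and -0.21, 0.92 and -0.16 after 2 Gy. After 10 Gy it was -0.10, -0.36 and 0.95, and after 5x2 Gy it was 0.91, 0.98 and 0.91. The arrays thus stood in 2 separate ranges, 7 of them at 0.91 to 1.33 and 5 at -0.36 to -0.10, with a gap of 1.01 and none between. These ranges are split at the largest gap in the values, and whether other pairs of miRNAs show such ranges was not tested. The upper range held 2 control arrays, 1 of 2 Gy, 1 of 10 Gy and all 3 of 5x2 Gy. All 5 arrays of the lower range were dimmer arrays on slide 1, and the sixth dimmer array, control replicate 1, was in the upper range. Groups overlapped in all 6 comparisons of this difference, and the smallest exact permutation p was 0.3 (two-sided, 0.675 adjusted over 18 comparisons).

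**Figure D4:**
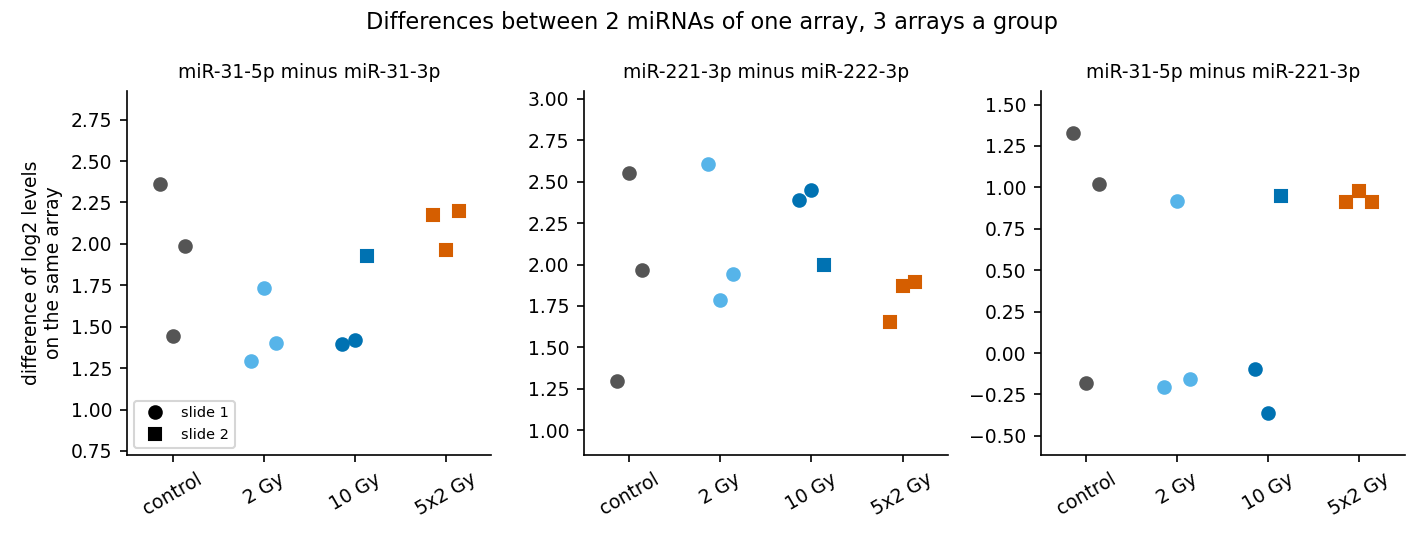
Differences between the log2 levels of 2 miRNAs on the same array (y axis) are plotted by group, with 1 point per array, circles for slide 1 and squares for slide 2. In the right panel, miR-31-5p minus miR-221-3p, 7 arrays sit at 0.91 to 1.33 and 5 at -0.36 to -0.10.

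The likeness of each member to other miRNAs over the arrays was also read. The most alike were picked as the highest of many, so their r is not set against that among the members. By Pearson's r of log2 level over the 12 arrays, used only as a measure of likeness among the 70 other miRNAs above the floor on all arrays, miR-31-5p was most like miR-93-5p (0.94), miR-17_v17.0 (0.91) and miR-99b-5p (0.91). Among the members, miR-222-3p ranked 26 of 70 (0.49) for miR-31-5p, its other arm 29 (0.44) and miR-221-3p 64 (-0.72). MiR-221-3p was most like miR-23a-3p (0.94), miR-23b-3p (0.93) and miR-365-3p (0.92), while miR-222-3p, from the neighbouring gene, ranked 35 (-0.12). MiR-31-3p was closest to miR-20b-5p (0.70), miR-19a-3p (0.69) and miR-210-3p (0.64), and miR-222-3p to miR-22-3p (0.63), miR-24-3p (0.61) and miR-92a-3p (0.61). MiR-31-5p ranked 15 of 70 for miR-31-3p (0.44) and 7 of 70 for miR-222-3p (0.49). All these points share the brightness and the scaling of their array. Against control in the order 2 Gy, 10 Gy and 5x2 Gy, miR-93-5p differed by -0.14, -0.20 and 0.14 and miR-23a-3p by 0.27, 0.33 and 0.13, with limma adjusted p of 0.291 to 0.934.

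Each member was read by 2 probes of 10 spots, so the agreement of the probes shows how far the measurement itself limits these values. Over the 12 arrays the log2 levels of the 2 probes had r = 0.97 for miR-31-5p, 0.95 for miR-222-3p, 0.91 for miR-221-3p and 0.31 for miR-31-3p. The median CV among spots of a probe ran from 8.35 to 26.1%. For miR-31-5p the 2 probes gave -0.46 and -0.53 in 2 Gy minus control, -0.39 and -0.53 in 10 Gy minus control, and 0.63 and 0.71 in 5x2 Gy minus 10 Gy. For miR-221-3p they disagreed in sign in each comparison with control, at -0.05 and 0.14 after 2 Gy, -0.01 and 0.21 after 10 Gy, and 0.0021 and -0.00045 after 5x2 Gy.

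The members were finally set beside 20 other miRNAs linked to growth of carcinoma cells, of which 19 were matched on the array and 18 tested. Limma called 2 of the 18 in 5x2 Gy minus control, a share near the 12.7% of all 118, namely miR-25-3p (0.40, SE 0.10, limma adjusted p = 0.0379) and miR-24-3p (0.32, SE 0.09, limma adjusted p = 0.0453), both higher. It called 0 of 18 in each of the other 5 comparisons, with a smallest limma adjusted p of 0.0982. MiR-24-3p is cut from the same primary transcripts as the miR-23 family members named above, and miR-25-3p from the one that holds miR-93. The median change of the list against control was -0.03 for 2 Gy, -0.02 for 10 Gy and -0.02 for 5x2 Gy, and it was 0.13 in 5x2 Gy minus 10 Gy, beside 0, 0, 0.00040 and 0.03 over all 118.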

How the data were processed

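The members, lists, tests and main settings were chosen with earlier results of these data known. Linear spot intensity was taken from the deposited scanner output, for which the submitters' processing notes name version 10.7.3.1 of Agilent Feature Extraction. Flags for control, outlier, saturated and well-above-background spots are 0 or 1 in the deposited files. A second, deposited table by the authors is on the log2 scale: its values are the log2 processed signal (with a minimum of 1 set first) plus a constant per array of -0.27 to 0.51, giving column means of 1.98 and column medians of -0.19 to 1.14.

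Control spots and outliers (2.04 to 4.95% per array) were removed, and no spot was saturated. After averaging the spots of a probe, each array was scaled by its 75th percentile across the 78 probes seen on every array, floored at 0.0598 of that value (log2 -4.06) and log2 transformed. Detection of a probe required that more than 0.5 of its spots exceed background clearly. Probes with detection on 3 or more arrays were averaged per miRNA. The test was limma 3.58.1 (R 4.3.3, with release 1.17.8 of data.table), fitted on the 12 arrays without covariates (8 residual and 0.45 prior degrees of freedom), two-sided, Benjamini-Hochberg adjusted over the 118 miRNAs of each comparison, with a threshold of 0.05. The fit was tested on simulated data. The number of arrays limits the precision. The normexp alternative used the median spot signal in place of the mean signal.

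The miRNAs named were the 4 members, their other arms, entries with a member's seed, the 3 most alike by r, and called members of the carcinoma list; the called fibroblast markers were named after their values were seen. Of that list miR-17-5p was not matched by name. Alternatives were other scalings, background, floors, filters, blocks, covariates and left-out arrays. Added after the data were seen were Feature Extraction's summed signal, the GC-rich covariate, brightness with a control array left out, and quantile scaling of differences within an array.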

Additional observations from a re-analysis of the deposited data

How the results depend on the processing

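Of 288 changes with 1 array left out, 260 kept their direction and 0 passed. Of 424 under the other settings, 350 kept it and 24 passed. With brightness and 1 control array left out, 55 of 72 kept it and 16 passed, 10 of them (miR-31-5p and miR-221-3p, 5 each) without control replicate 3. Calls over all 118 miRNAs were not counted in these fits. Median, quantile and no scaling, scaling over all probes, normexp and the authors' values moved the changes of the miRNAs by a common shift. This shift is the median difference from the main fit, over the 71 tested miRNAs above the floor on all arrays. In 5x2 Gy minus control it was -0.22 with median scaling, 0.11 with quantile scaling and -0.35 with normexp. It was 1.45 with the authors' values, 1.64 with all probes and 1.75 with no scaling. The calls under the last 3 of these rest on that common shift: relative to it, miR-31-5p was 0.21 with all probes and 0.29 with no scaling. The causes of the other differences were not tested. Deviations of arrays with the same replicate number had correlations of -0.88 to 0.73, over 0.1 in 6 of 18 pairs. For arrays with different numbers they ran from -0.71 to 0.85, over 0.1 in 15 of 36 pairs. Whether the replicate numbers pair the samples by culture or day was not tested. With the replicate block, 0 members passed, and the calls over all miRNAs in 5x2 Gy minus control were 10. The summed signal, the GC-rich covariate and brightness with a control array left out were chosen after seeing the data. The number of arrays limits the precision. Slide 2 alone has 1 array of 10 Gy, so its calls, 2 members included, rest on the spread of 5x2 Gy alone and say nothing of 10 Gy.

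Calls over all miRNAs in 2 Gy minus control (0) were 1 with the brightest probe and the GC-rich covariate and 6 with brightness. Members called in 2 Gy minus control (0) were 1 with brightness. Calls over all miRNAs in 10 Gy minus control (1) were 0 with no scaling, quantile scaling, the authors' values, no detection filter, the slide block, the replicate block, slide 1 alone and the GC-rich covariate, 2 with normexp, the brightest probe and only the groups compared and 26 with brightness. Members called in 10 Gy minus control (0) were 1 with brightness. Calls over all miRNAs in 5x2 Gy minus control (15) were 102 with all probes, 4 with median scaling, 86 with no scaling, 2 with normexp, 84 with the authors' values, 7 with the higher floor, 25 with the lower floor, 6 with no detection filter, 1 with the slide block, 28 with brightness and 41 with the GC-rich covariate. Members called in 5x2 Gy minus control (0) were 4 with all probes, 3 with no scaling and the authors' values and 1 with brightness and the GC-rich covariate. Calls over all miRNAs in 5x2 Gy minus 10 Gy (3) were 90 with all probes, 24 with no scaling and 0 with quantile scaling, normexp and the authors' values. They were 1 with median scaling, the higher floor, no detection filter, the slide block and the GC-rich covariate. Members called in 5x2 Gy minus 10 Gy (0) were 3 with all probes. Calls over all miRNAs in 5x2 Gy minus 2 Gy (5) were 109 with all probes, 2 with median scaling, the authors' values and no detection filter, 26 with no scaling, 0 with quantile scaling and normexp, 8 with the lower floor and brightness, 1 with the slide block, 3 with the replicate block and 12 with the GC-rich covariate. Members called in 5x2 Gy minus 2 Gy (0) were 4 with all probes and 1 with the GC-rich covariate. Calls over all miRNAs in the F test over the 4 groups (7) were 86 with all probes, 3 with median scaling, the higher floor, no detection filter and the replicate block, 23 with no scaling, 0 with quantile scaling, 2 with normexp, 4 with the authors' values, 1 with the slide block, 14 with brightness and 20 with the GC-rich covariate. Members called in the F test over the 4 groups (0) were 2 with all probes and 1 with brightness and the GC-rich covariate.

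The changes listed here include the common shift of each setting, so a turned sign need not be particular to a miRNA. With summed signal, miR-222-3p still changed relative to that shift, by 1.05, 0.93 and 1.32 after 2 Gy, 10 Gy and 5x2 Gy against control. For miR-31-5p in 2 Gy minus control (-0.49) the sign turned to 0.098 with no scaling. For miR-31-3p in 2 Gy minus control (-0.037) the sign turned to 0.14 with all probes, 0.50 with no scaling, 0.38 with quantile scaling, 0.37 with the authors' values, 0.0058 with the brightest probe and 0.023 with summed signal. For miR-221-3p in 2 Gy minus control (0.046) the sign turned to -0.018 with median scaling, -0.026 with normexp and -0.34 with the GC-rich covariate. For miR-222-3p in 2 Gy minus control (-0.13) the sign turned to 0.15 with no scaling, 0.27 with quantile scaling, 0.29 with the authors' values, 1.13 with summed signal and 0.041 with the GC-rich covariate. For miR-31-5p in 10 Gy minus control (-0.46) the sign turned to 0.035 with all probes, 0.19 with no scaling, 0.023 with the authors' values and 0.043 with the GC-rich covariate. For miR-31-3p in 10 Gy minus control (-0.11) the sign turned to 0.38 with all probes, 0.48 with no scaling, 0.38 with quantile scaling and 0.31 with the authors' values. For miR-221-3p in 10 Gy minus control (0.10) the sign turned to -0.0083 with normexp and -0.38 with the GC-rich covariate. For miR-222-3p in 10 Gy minus control (-0.24) the sign turned to 0.099 with all probes, 0.055 with no scaling, 0.34 with quantile scaling, 0.26 with the authors' values and 1.02 with summed signal. For miR-31-5p in 5x2 Gy minus control (0.21) the sign turned to -0.0032 with median scaling, -0.31 with the slide block and -0.35 with brightness. For miR-31-3p in 5x2 Gy minus control (0.032) the sign turned to -0.18 with median scaling, -0.45 with normexp, -0.048 with brightness and -0.042 with summed signal. For miR-221-3p in 5x2 Gy minus control (0.00081) the sign turned to -0.21 with median scaling, -0.13 with quantile scaling, -0.15 with normexp, -0.00045 with the brightest probe, -0.092 with summed signal and -0.32 with the GC-rich covariate. For miR-222-3p in 5x2 Gy minus control (0.13) the sign turned to -0.084 with median scaling and -0.58 with normexp. For miR-31-3p in 5x2 Gy minus 10 Gy (0.14) the sign turned to -0.096 with quantile scaling, -0.20 with normexp and -0.0094 with summed signal. For miR-221-3p in 5x2 Gy minus 10 Gy (-0.099) the sign turned to 1.05 with all probes, 1.08 with no scaling and 0.86 with the authors' values. Relative to the common shift these were -0.099, -0.099 and -0.090. The sign also turned to 0.34 with the slide block, 0.27 with brightness, 0.34 with slide 2 alone and 0.054 with the GC-rich covariate. For miR-222-3p in 5x2 Gy minus 10 Gy (0.37) the sign turned to -0.22 with normexp. For miR-31-5p in 10 Gy minus 2 Gy (0.034) the sign turned to -0.011 with quantile scaling, -0.14 with the slide block and -0.14 with slide 1 alone. For miR-31-3p in 10 Gy minus 2 Gy (-0.072) the sign turned to 0.25 with all probes. For miR-221-3p in 10 Gy minus 2 Gy (0.053) the sign turned to -0.032 with the GC-rich covariate. For miR-222-3p in 10 Gy minus 2 Gy (-0.11) the sign turned to 0.18 with all probes and 0.076 with quantile scaling. For miR-31-3p in 5x2 Gy minus 2 Gy (0.069) the sign turned to -0.081 with median scaling, -0.097 with quantile scaling, -0.28 with normexp and -0.066 with summed signal. For miR-221-3p in 5x2 Gy minus 2 Gy (-0.045) the sign turned to 1.42 with all probes, 1.19 with no scaling, 1.02 with the authors' values, 0.61 with the slide block, 0.35 with brightness and 0.023 with the GC-rich covariate. For miR-222-3p in 5x2 Gy minus 2 Gy (0.26) the sign turned to -0.30 with normexp.

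With 1 array left out, calls over all miRNAs ranged from 0 to 3 in 2 Gy minus control (3 without control replicate 2), from 0 to 7 in 10 Gy minus control, from 7 to 16 in 5x2 Gy minus control, from 1 to 3 in 5x2 Gy minus 10 Gy, from 2 to 9 in 5x2 Gy minus 2 Gy and from 2 to 14 in the F test. In 2 Gy minus control miR-31-3p ranged from -0.12 to 0.012, miR-221-3p from -0.10 to 0.28 and miR-222-3p from -0.29 to 0.050. After 10 Gy against control miR-221-3p ranged from -0.048 to 0.33. After 5x2 Gy against control miR-31-5p ranged from -0.0050 to 0.37, miR-31-3p from -0.050 to 0.079 and miR-221-3p from -0.15 to 0.24. In 5x2 Gy minus 10 Gy miR-221-3p ranged from -0.32 to 0.028. In 10 Gy minus 2 Gy miR-31-5p ranged from -0.14 to 0.25, miR-31-3p from -0.13 to 0.0095, miR-221-3p from -0.10 to 0.27 and miR-222-3p from -0.29 to 0.054. In 5x2 Gy minus 2 Gy miR-31-3p ranged from -0.013 to 0.15 and miR-221-3p from -0.20 to 0.037.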
